A study of Mus musculus with 4 samples.

Results

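The regions described are open chromatin peaks that lay in the first intron of a gene, over 1000 bp from the nearest annotated start site and outside annotated repeats. There were 1876 such peaks among the 15221 annotated peaks, and among 85925 consensus peaks in all. Of 2541 annotated first intron peaks, 2263 lay over 1000 bp from a start site, and 387 of these were left out as repeats. The 1876 peaks belonged to 1393 genes, each named by the authors as the gene of the nearest start site, and to 1365 genes that host the intron. At the distance limit, the nearest peaks inside lay near Mir6372 (-1001 bp, log2 fold 0.66), Psap (1008 bp, -0.35) and Cmklr1 (-1024 bp, 0.34) per the authors' deposited table. The nearest peaks outside lay near Plxna4os1 (0.77), Gm13872 (979 bp, 0.42) and Lysmd1 (970 bp, 0.45) per the same deposited table.

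The study measured chromatin accessibility by ATAC-seq, in which a transposase cuts and tags open DNA. The cells were periosteal stem/progenitor cells, taken at the mandibular angle from mice aged 8 weeks. The 2 knockout libraries carried Ctsk-iCre with Plagl1fl/fl, and the 2 control libraries carried Plagl1fl/fl, with no Cre in their labels. All 4 libraries came from cultured cells after 3 days of osteogenic induction with 50 µg/ml ascorbic acid, 5 mM β-glycerophosphate and dexamethasone. Both genotypes thus carried the floxed allele, and an effect of Cre and one of the deletion cannot be told apart. Ctsk encodes cathepsin K, a protease that marks osteoclasts as well as periosteal progenitors, and Plagl1 encodes an imprinted zinc finger transcription factor. The labels do not say whether the 2 libraries of a genotype came from separate animals. As a rule, the error behind a p-value followed signal almost alone, so spread between libraries, whether technical or between animals, barely entered it. The deposited table gives 1 fold, 1 F score, 1 p-value and 1 mean signal per peak over the 4 libraries, so values and depth per library are unknown. A positive log2 fold is taken to mean more open in the knockout. The authors' gain or loss label matched its sign in 1876 of 1876 peaks but names no genotype. In cultures of mixed cells, a change in the share of cells that hold a site open and a change within each cell cannot be told apart.

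First introns are often the longest introns of mouse genes, and many of the enhancers that act on a gene lie in them, near its promoter. Such an enhancer is bound by transcription factors of the cell's lineage and is opened to the transposase where they displace nucleosomes. In periosteal cells that turn to bone, RUNX and AP-1 factors are known to act at such sites, while PU.1, an ETS factor, is known for opening them in macrophages and osteoclasts. No genome of the files' build, mm39, was used here, so the sequence of the intron peaks is not shown. Promoters of 8 genes in which an intron peak and the peak over the promoter were both called were read in its place, and 6 of them are shown. They are taken from RefSeq on build GRCm38.p6, which is not the build of the peaks, and run 5′ to 3′ on the gene's strand, beginning 250 bases before the start site and ending 50 after it. Dock2 (chr11:34783856-34784155, minus strand), Tfec (chr6:16898392-16898691, minus strand) and Cyba (chr8:122432891-122433190, minus strand) gained at both places. Gxylt2 (chr6:100704484-100704783, plus strand) and Cobll1 (chr2:65238742-65239041, minus strand) lost at both places. Sdc3 (chr4:130792287-130792586, plus strand) gained in the intron and lost at the promoter. Capitals mark the letters TGANTCA (AP-1), TGTGGT (RUNX), CCGGAA (ETS) and AGGAAGT (PU.1), searched on both strands.
Dock2: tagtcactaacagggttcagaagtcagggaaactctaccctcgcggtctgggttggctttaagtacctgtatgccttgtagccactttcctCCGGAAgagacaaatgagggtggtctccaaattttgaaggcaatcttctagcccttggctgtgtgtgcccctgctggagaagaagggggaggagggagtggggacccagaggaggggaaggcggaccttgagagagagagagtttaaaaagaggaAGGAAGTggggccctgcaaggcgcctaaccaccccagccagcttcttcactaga
Tfec: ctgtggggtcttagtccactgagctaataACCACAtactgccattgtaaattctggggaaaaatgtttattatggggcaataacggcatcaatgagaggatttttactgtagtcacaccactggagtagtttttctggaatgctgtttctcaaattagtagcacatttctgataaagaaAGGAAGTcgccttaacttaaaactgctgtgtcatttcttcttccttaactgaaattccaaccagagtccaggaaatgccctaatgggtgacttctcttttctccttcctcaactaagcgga
Cyba: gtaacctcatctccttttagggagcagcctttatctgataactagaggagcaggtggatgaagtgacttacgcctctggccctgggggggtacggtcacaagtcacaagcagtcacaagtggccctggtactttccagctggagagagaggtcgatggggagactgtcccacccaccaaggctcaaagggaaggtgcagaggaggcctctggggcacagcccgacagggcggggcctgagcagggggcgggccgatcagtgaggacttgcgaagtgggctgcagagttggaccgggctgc
Gxylt2: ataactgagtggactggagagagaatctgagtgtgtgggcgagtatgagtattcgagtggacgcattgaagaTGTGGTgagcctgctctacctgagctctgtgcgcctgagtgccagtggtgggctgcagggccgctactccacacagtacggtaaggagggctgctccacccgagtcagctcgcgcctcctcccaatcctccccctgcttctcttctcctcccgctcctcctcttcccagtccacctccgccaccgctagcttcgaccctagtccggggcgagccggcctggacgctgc
Cobll1: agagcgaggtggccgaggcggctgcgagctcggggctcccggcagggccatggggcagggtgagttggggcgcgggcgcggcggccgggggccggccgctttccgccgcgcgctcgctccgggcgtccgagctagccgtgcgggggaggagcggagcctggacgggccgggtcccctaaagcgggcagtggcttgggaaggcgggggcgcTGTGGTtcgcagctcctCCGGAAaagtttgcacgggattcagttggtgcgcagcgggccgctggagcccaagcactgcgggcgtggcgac
Sdc3: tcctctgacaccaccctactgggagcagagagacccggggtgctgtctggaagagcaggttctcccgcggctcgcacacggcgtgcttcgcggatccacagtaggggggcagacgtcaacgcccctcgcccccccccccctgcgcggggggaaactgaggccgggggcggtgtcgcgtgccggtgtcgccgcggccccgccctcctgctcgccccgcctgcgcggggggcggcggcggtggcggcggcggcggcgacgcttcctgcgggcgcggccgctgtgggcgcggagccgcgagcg
The Dock2 window held 1 ETS and 1 PU.1 match, and the Tfec window 1 RUNX and 1 PU.1 match. The Gxylt2 window held 1 RUNX match, the Cobll1 window 1 RUNX and 1 ETS match, and the Cyba and Sdc3 windows none of these letters. Rassf4, gained at both places, and Stimate, lost at both places, also held none. The PU.1 letters were thus in 2 of 4 windows of genes gained at both places and in 0 of 3 of genes lost at both places, and these few windows were chosen after their values were seen. Over 32851 RefSeq promoters of this length, 7.81% held the AP-1 letters, 16.8% the RUNX letters, 14.9% the ETS letters and 9.35% the PU.1 letters. The ETS and PU.1 letters share the core GGAA and can overlap. GC content was 40.3%, 54.3%, 58.7% and 60.7% for Tfec, Dock2, Rassf4 and Cyba, 60.3%, 62% and 75.3% for Stimate, Gxylt2 and Cobll1, and 77.7% for Sdc3, against a median of 52.7% over all promoters. The windows of genes gained and lost at both places overlapped in GC.

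The first comparison asked which first intron sites differed in accessibility between knockout and control cells. With the fold read in this direction, more of them gained accessibility than lost it. By the edgeR FDR of the authors' deposited table, with a limit of 0.05, 378 of 1876 peaks (20.1%) were gained and 215 (11.5%) were lost. Gained peaks included sites in Sfi1, Bid, Nfkbie, Rassf4, Src, Clcn7 and Dock2, and lost peaks included sites in Erg, Cst3, Wwc1, Adamts1, Ddr2 and Smad3. The authors annotated only peaks with a p-value under 0.05 and an absolute log2 fold of 0.2 or more, so these counts are read against annotated peaks, of which 30.6% were called, 17.6% gained and 13.1% lost. Over all consensus peaks 5.62% were called, 3.14% gained and 2.48% lost. The called share of first intron peaks, 31.6%, was thus near that of all annotated peaks. Gained peaks made up 63.7% of the called first intron peaks (95% interval 59.7 to 67.6% by the exact Clopper-Pearson method, which covers counting error alone), or 36.3% if the ratio runs the other way.

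Changes were modest in size. The median log2 fold was 0.56 among gained peaks (1.47-fold) and -0.40 among lost peaks (0.756-fold). A gain of at least 1 on the log2 scale was seen in 19 peaks, and a loss of that size in 4. Gained peaks were weaker than lost ones, with a median signal of 8.57 CPM against 16.1 CPM (CPM scales reads to library size), and narrower, with a median width of 498 bp against 601 bp. All 1876 peaks had a median signal of 7.57 CPM (0.928 to 68.6 CPM) and a median width of 474 bp (134 to 1842 bp).

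**Figure D1:**
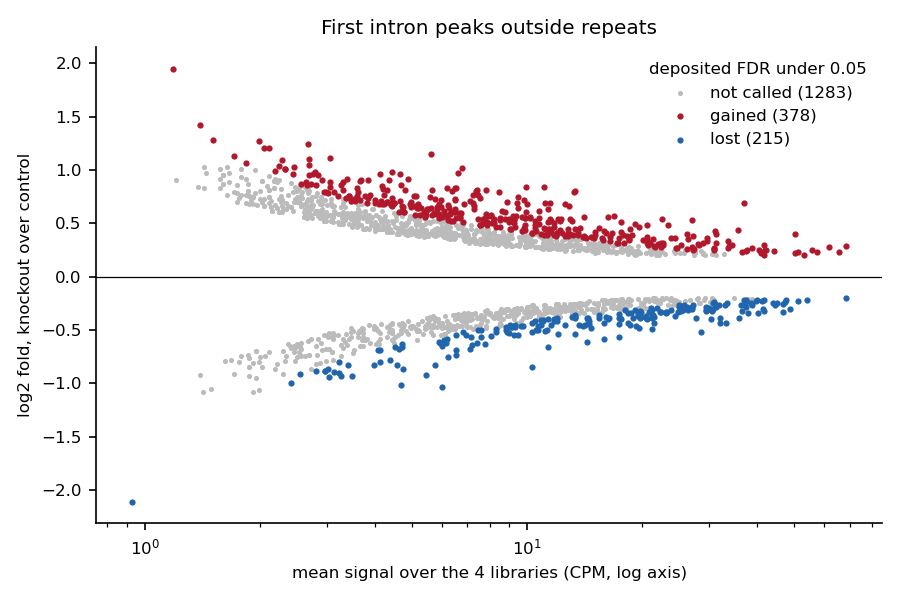
Each point is 1 first intron peak, with its mean signal over the 4 libraries in CPM on a log axis and its log2 fold of knockout over control, coloured where the deposited FDR was under 0.05. Gained peaks (378) outnumber lost peaks (215) except at the strongest signals, and folds narrow as signal rises.

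Direction and signal moved together. Signal was split into 4 bins that hold equal numbers of all consensus peaks, with bounds at 3.04, 5.51 and 12.7 CPM. In first introns, 31 peaks were gained and 8 lost in the weakest bin, 79 and 19 in the next, 153 and 60 in the one above it, and 115 and 128 in the strongest. Gained peaks were 79.5%, 80.6%, 71.8% and 47.3% of the called ones in these bins. Over all called consensus peaks it was 85.4%, 77.1%, 65.7% and 37.2%, so the same decline was seen outside first introns. The median log2 fold of all consensus peaks was 0.10 in the weakest bin and -0.05 in the strongest. After a running median of the fold along signal was subtracted, the gained shares of first intron peaks were 53.1%, 64.4%, 75.1% and 74.2%, which puts the stronger bins above the weaker ones.

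Sites near the promoter leaned further towards gain than distant ones, although the difference was not tested. Between 1 and 5 kb from the start site 99 peaks were gained and 46 lost, and between 5 and 20 kb 169 were gained and 80 lost. Between 20 and 50 kb 80 were gained and 61 lost, and beyond 50 kb 30 were gained and 28 lost. The gained share was 68.3%, 67.9%, 56.7% and 51.7% in these bins, and 78.5%, 74.6%, 66.1% and 58.6% with the trend along signal subtracted. Median signal was 9.2, 7.04, 6.92 and 7 CPM in the same bins, so the bins beyond 5 kb were close in signal. Peaks in later introns had shares of 74%, 61.4%, 59.9% and 44.3% at these distances, and intergenic peaks 64.2%, 67.8%, 61.1% and 49.4%. The decline with distance was therefore not particular to first introns.

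Later introns, intergenic sites and promoters differed in their balance. Outside repeats, the 3959 later intron peaks included 655 (16.5%) that were gained and 504 (12.7%) that were lost, and gained peaks were 56.5% of the called ones (53.6 to 59.4%). Intergenic peaks had 861 of 4807 (17.9%) gained and 605 (12.6%) lost, or 58.7% (56.2 to 61.3%). Promoter peaks within 1000 bp of a start site leaned the other way, with 172 of 1598 (10.8%) gained and 397 (24.8%) lost, a share of 30.2%. First intron peaks had a median of 7.57 CPM and promoter peaks one of 15.8 CPM. With the trend along signal subtracted, the gained share was 71.9% in first introns and 56.2% at promoters. First intron peaks in repeats had 80 of 387 gained and 26 lost, a share of 75.5%. These shares were set side by side without a test of their difference.

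**Figure D2:**
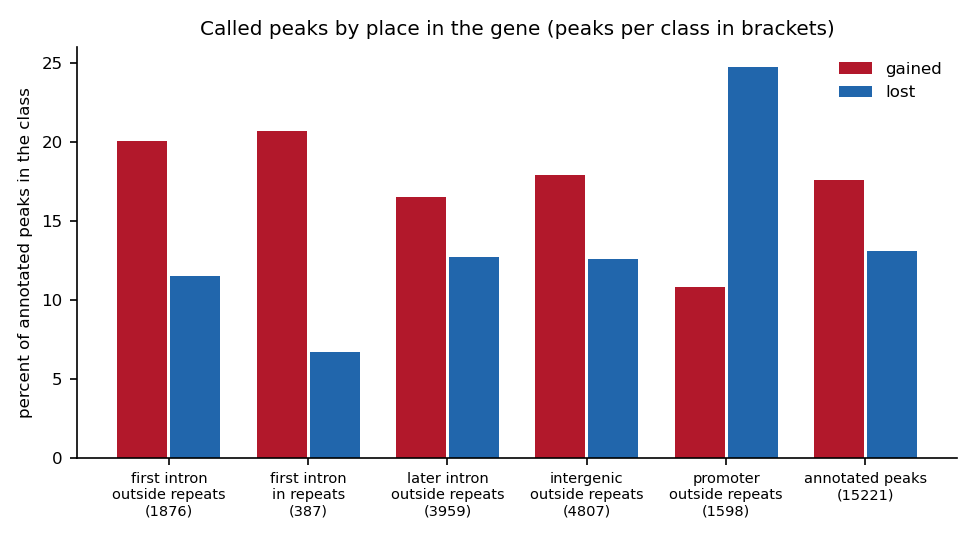
Bars give the percent of annotated peaks of each class that passed a deposited FDR of 0.05 in either direction, with the number of peaks in brackets. First intron peaks had 20.1% gained and 11.5% lost, while promoter peaks had 10.8% gained and 24.8% lost.

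The architecture of the host gene gave no steady order. Gained shares were 69.7% where the transcript had 1 intron, 53.2% with 2 to 4 introns, 67.1% with 5 to 9, 61.7% with 10 to 19 and 71.2% with 20 or more. Of peaks downstream of the nearest start site 308 were gained and 187 lost, and of those upstream of it, as happens where the nearest start site is that of another transcript, 70 were gained and 28 lost. The gene that hosts the intron was also the nearest gene in 1685 peaks, of which 347 were gained and 190 lost. In the other 191 peaks, 31 were gained and 25 lost. Only 21 peaks lay on a CpG island, with 1 gained and 4 lost. Among chromosomes, picked here for contrast, chromosome 17 had 24 of 78 peaks gained (30.8%) and 5 lost (6.41%). Chromosome 11 had 37 of 134 (27.6%) and 12 (8.96%), and chromosome 7 had 21 of 105 (20%) and 21 (20%). Chromosome 10 had 3 of 71 (4.23%) and 7 (9.86%). Over all first intron peaks 20.1% were gained and 11.5% lost, and differences between chromosomes were not tested.

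The gains with the smallest FDR lay in genes of varied function. Sfi1, which encodes a centrin-binding protein of the centrosome, had the smallest FDR of all first intron peaks. Its peak (chr11:3146045-3146837, intron 1 of 28) had a log2 fold of 0.69 (FDR 2.22e-16; SE 0.0719, derived from the deposited F) at 37.1 CPM per the authors' deposited table. Sfi1 has near-identical copies in the mouse genome, so reads of this peak may belong in part to a copy. Bid, a pro-apoptotic member of the BCL2 family, had a gained peak (chr6:120878883-120879324) with a log2 fold of 0.84 (SE 0.131, FDR 5.05e-07) per the authors' deposited table. Nfkbie, an inhibitor that holds NF-κB in the cytoplasm, had one of 0.53 (SE 0.0835, FDR 6.29e-07) at chr17:45867373-45869145 in the same table. Pip5k1c makes the membrane lipid that recruits adhesion proteins, and its strong peak at 50.5 CPM (chr10:81133641-81134879) had a log2 fold of 0.40 (SE 0.0616) per the authors' deposited table.

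Among named gains, the largest folds came at weaker peaks, while other gains given here lay at stronger ones. Rassf4, of the RAS association domain family, had a log2 fold of 1.15 (2.23-fold, SE 0.185) at 5.62 CPM, 1295 bp from its start site (chr6:116649343-116649661), per the authors' deposited table. The uncharacterised gene Gm4827 had 1.02 (SE 0.169) at 6.76 CPM per the authors' deposited table. Tulp4, of the tubby-like family, had 0.84 (SE 0.138) at 9.98 CPM in that table. Bri3, which encodes a small lysosomal membrane protein, had 0.79 (SE 0.119) at 13.3 CPM per the same deposited table. A peak named for E230013L22Rik lay in the only intron of Rab20, a small GTPase of phagosomes. It had 0.80 (SE 0.119) at 13.4 CPM per the authors' deposited table. F7, which encodes coagulation factor VII and is known mainly from liver, had 0.44 (SE 0.0729) at 35.7 CPM in the authors' deposited table. Sost, the gene of the WNT inhibitor sclerostin, had 0.97 (SE 0.17) at 6.63 CPM in its only intron in that table.

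Losses were smaller with all signals pooled and lay mostly in stronger peaks. Within bins of signal, median folds of gained and lost peaks were closer in size. From the weakest bin to the strongest, the log2 medians were 1.01 and -0.90, 0.71 and -0.83, 0.55 and -0.51, and 0.35 and -0.33. Erg, an ETS factor known best from endothelium, had the smallest FDR among lost peaks, with a log2 fold of -0.52 (SE 0.0841, FDR 2.05e-06) at 28.5 CPM per the authors' deposited table (chr16:95373810-95374695, intron 1 of 10). Cst3, which encodes the cathepsin inhibitor cystatin C, had -0.85 (0.555-fold, SE 0.143, FDR 5.46e-06) at chr2:148714848-148715176 per the authors' deposited table. Wwc1, which encodes the Hippo pathway protein KIBRA, had the largest loss among peaks above 5.51 CPM, the median signal of all consensus peaks, at -1.03 (0.491-fold, SE 0.191), 47877 bp from the start site, per the same deposited table. Synm, an intermediate filament gene, had -0.49 (SE 0.0969) and Ywhag, a 14-3-3 adaptor, -0.43 (SE 0.0776) per the authors' deposited table. Galnt18, of a family of O-glycosylation enzymes, had -0.39 (SE 0.0747) at 163432 bp from its start site in the deposited table of the authors. Rassf8, of the same family as Rassf4, had -0.61 (SE 0.119) per the authors' deposited table. Thus 2 genes of the RASSF family moved in opposite directions.

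Further losses were found in Stimate, a regulator of calcium entry at the endoplasmic reticulum, at -0.57 (SE 0.108), and in Plac9 at -0.58 (SE 0.113) per the authors' deposited table. The Plac9 locus has a near-identical copy, so its reads may be split. The non-coding gene 4930568G15Rik had -0.43 (SE 0.079) per the same deposited table. Above the same signal, large losses also fell in Ebpl at -0.83 (SE 0.192), in Inpp5a, an inositol phosphate phosphatase, at -0.75 (SE 0.183), and in Elavl1, the RNA-binding protein HuR, at -0.73 (SE 0.179), per the authors' deposited table. The same intron of Inpp5a held 2 other peaks, at 0.60 and 0.52, that were not called. Of 3 further annotated peaks of Inpp5a, 1 was gained per the same deposited table. If libraries of 1 genotype differed by a coefficient of variation of 0.1 beyond the deposited error, only 10 of 106 named peaks would still be called. These were the peaks of Sfi1, E230013L22Rik, Bri3, Bid, Rassf4, Tulp4, Gm4827, Sost, Cst3 and Wwc1. Of all 85925 consensus peaks, 55 would be called with a coefficient of 0.1, and 0 with one of 0.2.

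**Figure D3:**
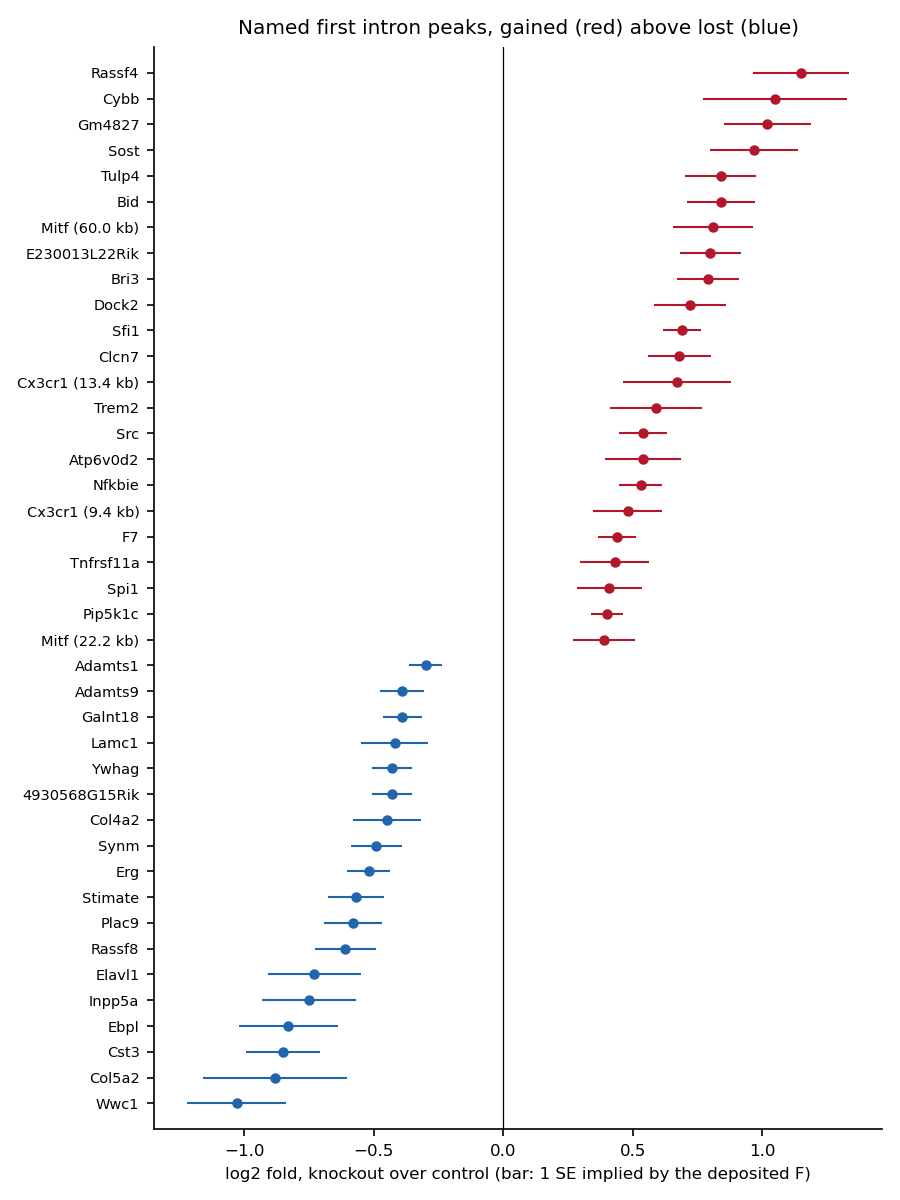
Points are the log2 folds of knockout over control for named first intron peaks, with bars of 1 standard error implied by the deposited F. Gained peaks stand above lost ones, with Rassf4 at 1.15 and Wwc1 at -1.03.

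The called peaks of macrophage and osteoclast genes were all gained. The leukocyte and macrophage list had 11 first intron peaks in 7 of 30 genes, of which 6 (54.5%) were gained and 0 lost, against 20.1% gained and 11.5% lost over all first intron peaks. The median log2 fold of the list was 0.48, against 0.31 for all first intron peaks. Cybb, the catalytic subunit of the phagocyte oxidase, had 1.05 (SE 0.277, FDR 0.00857) at 2.7 CPM, a weak peak, per the authors' deposited table. Dock2, an activator of RAC in leukocytes, had 0.72 (SE 0.139, FDR 9.41e-05; chr11:34661498-34662541) per the same deposited table. The chemokine receptor gene Cx3cr1 had 2 gained peaks at 0.67 (SE 0.208) and 0.48 (SE 0.134), and another peak at -0.37 that was not called (FDR 0.12), per the authors' deposited table. Trem2, a lipid receptor of macrophages, had 0.59 (SE 0.179, FDR 0.0261) and Spi1, which encodes PU.1, had 0.41 (SE 0.125, FDR 0.0305) in the deposited table of the authors. Inpp5d had 0.54 (FDR 0.0809) and Laptm5 0.32 (FDR 0.0731), and neither was called per the authors' deposited table.

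The osteoclast list had 16 peaks in 9 of 24 genes, with 6 gained (37.5%), 0 lost and a median log2 fold of 0.41. That called share is near the 31.6% of all first intron peaks, and what the list's calls share is their direction. Src, the kinase required for the ruffled border of osteoclasts, had 0.54 (SE 0.0913, FDR 5.47e-06; chr2:157270054-157270760) per the authors' deposited table. Clcn7, the chloride transporter of the resorption vacuole, had 0.68 (SE 0.122, FDR 2.36e-05; chr17:25359090-25360165) in the same table as deposited by the authors. Atp6v0d2, a subunit of the vacuolar proton pump, had 0.54 (SE 0.147, FDR 0.0116), and Tnfrsf11a, the receptor RANK, had 0.43 (SE 0.133, FDR 0.0305) per the authors' deposited table. Mitf, a transcription factor of osteoclasts, melanocytes and lysosomal genes, had 6 annotated peaks in its first intron. Per the authors' deposited table, 2 of these were gained, at 0.81 (SE 0.156) and 0.39 (SE 0.119), and the other 4, at 0.45, 0.34, -0.22 and -0.26, were not called. Of 6 further annotated peaks of Mitf outside this set, 1 was gained and 2 were lost. Over all annotated peaks of these lists, 31 of 62 leukocyte peaks were gained and 2 lost, and 19 of 56 osteoclast peaks were gained and 4 lost. The share of such cells in either genotype was not measured, and its part in these gains was not tested.

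The called peaks of extracellular matrix genes were all lost. Of 13 peaks in 9 of 45 matrix genes, 0 were gained and 5 (38.5%) lost, with a median log2 fold of -0.39 against 0.31 for all first intron peaks. The called share is near the 31.6% of all first intron peaks, of which 11.5% were lost. Adamts1, a protease of the proteoglycans, had -0.30 (SE 0.0639, FDR 0.000549) at 48.9 CPM per the authors' deposited table. Adamts9, another protease of that family, had -0.39 (SE 0.0845) at a peak -82991 bp from its own start, in the first intron of the non-coding gene 9530026P05Rik, per the same deposited table. The peak named for Col4a2 lay in the first intron of Col4a1, the adjoining basement membrane collagen gene, and had -0.45 (SE 0.131) per the authors' deposited table. Lamc1, a laminin chain, had -0.42 (SE 0.129, FDR 0.0318), and the fibrillar collagen gene Col5a2 had -0.88 (SE 0.278, FDR 0.0356) at only 2.96 CPM, in the deposited table of the authors. Col8a1 was at 0.97 without a call (FDR 0.0965) per the authors' deposited table. Over all annotated peaks of the list, 9 of 94 were gained and 28 lost.

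Peaks of the bone lists were few. Of 26 osteoblast and mineral matrix genes 3 had a first intron peak, with 1 gained (Sost) and 2 lost, against 5 of 30 gained and 6 lost over all annotated peaks of the list. Mef2c, a transcription factor that drives Sost in osteocytes, had -0.54 (SE 0.129, FDR 0.00293), and Tnc, which encodes tenascin C of bone surfaces and tendon, had -0.43 (SE 0.104, FDR 0.00364) per the authors' deposited table. The progenitor list had 2 peaks, of which Prrx2, a homeobox gene of limb and jaw mesenchyme, was lost at -0.28 (SE 0.0794, FDR 0.0152) and Twist2, at -0.33, was not called (FDR 0.0616) per the authors' deposited table. Tnc was also the only tendon peak and Erg the only endothelial one. The adipocyte, Schwann and neural, and hedgehog lists had 1 peak each and none called, and the glucocorticoid list had 2 peaks and none called. Chondrocyte, skeletal muscle and AP-1 genes had 0 first intron peaks, although 17 of 40 annotated peaks of the AP-1 and immediate early list were gained and 1 lost.

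Signalling pathways were mixed, beside 20.1% gained and 11.5% lost over all first intron peaks. In the WNT list 2 of 12 peaks (16.7%) were gained and 0 lost. Yet the median log2 fold was -0.37, because 8 of the 12 were negative. Over all annotated peaks of this list the direction was the other way, with 6 of 83 gained and 18 lost. Besides Sost, the gained peak lay in Ror2, a receptor of WNT5A, at 0.76 (SE 0.234, FDR 0.0298) per the authors' deposited table, among 5 peaks of that intron. The other 4 Ror2 peaks, at -0.73, -0.52, -0.43 and 0.39, were not called per the same deposited table. In the BMP and TGF-beta list 3 of 11 peaks (27.3%) were gained and 2 (18.2%) lost. Over all annotated peaks of that list 10 of 58 were gained and 10 lost. Smad3, the signal carrier of TGF-beta receptors, had lost peaks at -0.64 (SE 0.169) and -0.39 (SE 0.0964) and a gained one at 0.30 (SE 0.091) per the authors' deposited table. Smurf1, a ubiquitin ligase that removes SMAD proteins, had gained peaks at 0.45 (SE 0.119) and 0.40 (SE 0.12) in the deposited table of the authors.

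The FGF and IGF list had 2 of 8 peaks (25%) gained and 2 (25%) lost, against 20.1% and 11.5% over all first intron peaks. Over all annotated peaks of that list 12 of 66 were gained and 14 lost. The ligand gene Fgf2 had -0.32 (SE 0.0736, FDR 0.00208) and the receptor gene Fgfr2 -0.31 (SE 0.0862, FDR 0.0146) per the authors' deposited table. The FGF signalling inhibitor Spred2 had 0.65 (SE 0.18, FDR 0.0134), and Igf2r, the imprinted receptor that clears IGF2, had 0.79 (SE 0.15, FDR 8.74e-05), per the authors' deposited table. The NOTCH list had 2 of 8 peaks (25%) gained and 0 lost (13 of 36 and 3 over all its annotated peaks). The receptor Notch2 had 0.30 (SE 0.0863) and the coactivator Maml2 0.61 (SE 0.2) per the same deposited table. In the Hippo list Wwc1 was lost and the other 2 of 3 peaks were not called, and over all its annotated peaks 1 of 27 was gained and 2 lost. Of the KLF, IRX and PLAG factors, Klf3 had 0.32 (SE 0.0808, FDR 0.00543) and Klf5 had -0.91 (SE 0.303, FDR 0.0485) at 2.55 CPM in the deposited table of the authors.

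The actin and focal adhesion list had 17 peaks in 12 of 41 genes, of which 4 (23.5%) were gained and 3 (17.6%) lost. Over all first intron peaks 20.1% were gained and 11.5% lost. Over all annotated peaks of the list 18 of 96 were gained and 10 lost. Tns3, a tensin that links integrins to actin, had 3 gained peaks at 0.57 (SE 0.142), 0.46 (SE 0.117) and 0.46 (SE 0.13) per the authors' deposited table. Parva, a parvin of the integrin-linked kinase complex, had -0.87 (SE 0.212), and Myh9, a non-muscle myosin, had -0.52 (SE 0.14) per the same deposited table. Pxn, the adhesion scaffold paxillin, held a lost peak at -0.39 (SE 0.0984, chr5:115652688-115653422) and a gained one at 0.35 (SE 0.101, chr5:115654215-115654934) per the authors' deposited table. Another lost peak of the same intron, named for Rplp0 as the nearest gene, had -0.39 (SE 0.128) per the same deposited table. The first intron of Pxn thus held 2 lost peaks and 1 gained peak. The median log2 fold of this list, 0.32, was close to the 0.31 of all first intron peaks.

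Peaks of 1 gene often moved the same way, though not always. Of 319 genes with 2 or more first intron peaks, 144 had all of them positive, 69 all negative and 106 mixed. Thus 66.8% had 1 direction, against 55.7% of 747 genes with 2 or more later intron peaks. These shares are not matched for peaks per gene, as 100 of the 319 and 281 of the 747 had 3 or more. Positive folds made up 61.2% of first intron and 57.3% of later intron peaks, and the difference in shares was not tested. Of 59 genes with 2 or more called first intron peaks, 36 had all gained, 9 all lost and 14 both. Peaks of 1 gene share its locus and are not replicates. There were 15 genes with 3 or more called peaks. Arap1 and Zmiz1, which encode a GTPase regulator and a transcriptional coactivator, had 3 gained peaks each, as did Fnip2, Nav2, Pde10a and Tns3. In Pde10a, a cyclic nucleotide phosphodiesterase gene, these were 0.83 (SE 0.17), 0.54 (SE 0.12) and 0.48 (SE 0.159) per the authors' deposited table. The peaks named for Gm14010 lay in Morrbid, a long non-coding RNA known to control the survival of myeloid cells in mice, and had 0.52 (SE 0.172), 0.48 (SE 0.0954) and 0.42 (SE 0.127) per the authors' deposited table.

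Ddr2, a collagen receptor of osteoblasts and other mesenchymal cells, had 3 lost peaks at -0.39 (SE 0.0789), -0.27 (SE 0.0848) and -0.23 (SE 0.0691) per the authors' deposited table. Eml1, a microtubule-binding protein gene, had 3 lost peaks at -0.28, -0.27 and -0.23 per the same deposited table. The 3 lost peaks named for Mrm3 lay in the first intron of Nxn, the gene of the WNT regulator nucleoredoxin, at -0.50 (SE 0.164), -0.46 (SE 0.102) and -0.29 (SE 0.0963) in the deposited table of the authors. The other 5 of these genes held both directions. Septin11, a septin gene, had 2 gained and 2 lost peaks, Elmo1, a partner of DOCK proteins, 3 gained and 1 lost, and Hivep3, Iqsec1 and Smad3 1 gained and 2 lost each.

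Within single introns, peaks that the authors did not annotate were also counted. There were 91 first introns with 3 or more member peaks (330 peaks), and 402 further consensus peaks without annotation lay between the outermost ones. The authors' limits for annotation keep nearly all called peaks (4664 of 4833), so few calls can occur among the 402, and only their sign was read. In the 32 introns whose annotated first intron peaks were all positive, 85 of 119 such peaks (71.4%) were also positive. In the 16 introns with all negative peaks it was 14 of 53 (26.4%), and in the 43 mixed introns 117 of 230 (50.9%). Gas7, which encodes a cytoskeletal adaptor, had 7 annotated peaks over 29.7 kb, all positive, with 2 gained at 0.63 (SE 0.171) and 0.26 (SE 0.0849) per the authors' deposited table. Of the 3 unannotated peaks in that intron, 2 were positive. In Ddr2 all 5 annotated peaks and all 6 unannotated ones were negative.

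**Figure D4:**
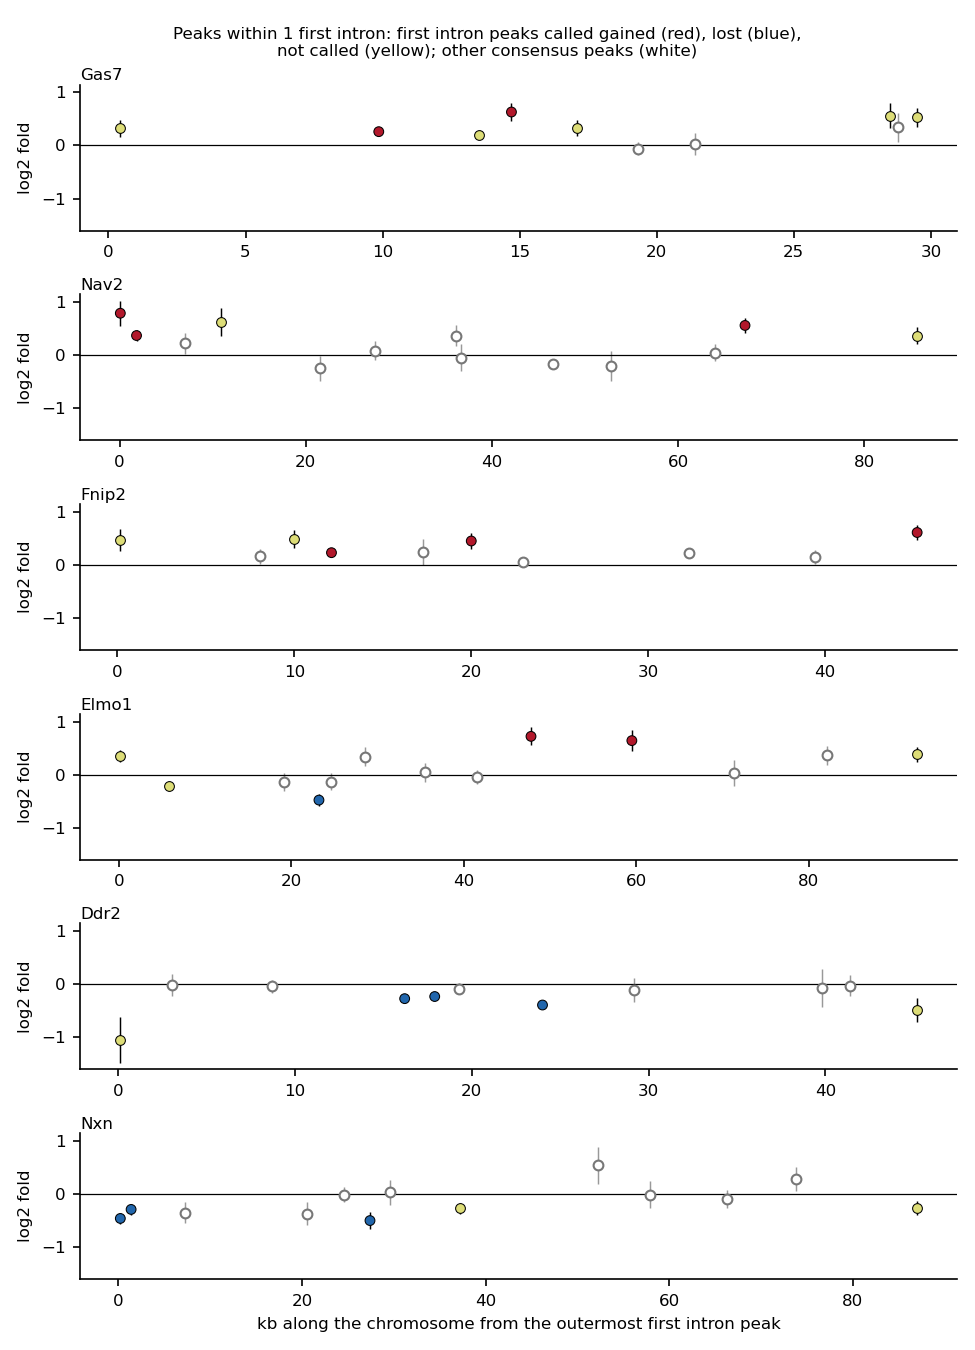
Each panel is 1 first intron, with distance along the chromosome in kb from its outermost first intron peak and the log2 fold of knockout over control, with bars of 1 implied standard error. All 7 annotated peaks of Gas7 lie above 0 and all 5 of Ddr2 below it, while Elmo1 holds both called directions.

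The second comparison set first intron peaks beside the promoter peak that the authors assigned to the same gene. There were 254 pairs of an annotated first intron peak and an annotated promoter peak, in 189 genes. Both were positive in 78 pairs and both negative in 87, while the intron peak was positive and the promoter peak negative in 72 pairs, and the reverse held in 17. Where both were called (41 pairs of 33 genes), 14 pairs were both gained, 17 both lost, 9 gained in the intron and lost at the promoter, and 1 the reverse. The shared direction was thus found in 75.6% of these pairs, against 78.3% of 60 pairs of a later intron peak and a promoter peak. Pairs were matched by the authors' nearest gene, and in 39 of the 41 that gene also hosted the intron, with 13 pairs both gained, 16 both lost, 9 gained in the intron and lost at the promoter, and 1 the reverse.

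Genes of myeloid cells were among those gained at both places. Dock2 had 0.72 in the intron and 0.76 at the promoter, and Spi1 had 0.41 and 0.61, per the authors' deposited table. Tfec, a relative of Mitf known from macrophages, had 0.61 and 0.96, and Cyba, a subunit of the phagocyte oxidase, had 0.34 and 0.37, per the same deposited table and the same order. Rassf4 had 1.15 in the intron and 0.40 at the promoter per the authors' deposited table. Among genes lost at both places, Gxylt2, a xylosyltransferase that acts on NOTCH, had -0.24 in the intron and -0.61 at the promoter per the authors' deposited table. The lost peak that the authors assigned to Adamts9, at -0.39, lies in an intron of 9530026P05Rik, and the promoter of Adamts9 had -0.44 in that deposited table. Stimate had -0.57 and -0.33, Cobll1, a relative of the actin nucleator cordon-bleu, -0.42 and -0.24, and Prrx2 -0.28 and -0.36, in that deposited table.

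Opposite moves were nearly all of 1 kind, a gain in the intron and a loss at the promoter. Among the 9 pairs of this kind, the 3 gained peaks of Arap1 share 1 promoter peak, lost at -0.21. Mtcl2 and Sdk1 each had another pair that was lost at both places. Sdc3, which encodes the heparan sulfate proteoglycan syndecan 3, had 0.70 in the intron and -0.64 at the promoter, with 4.99 and 4.79 CPM, per the authors' deposited table. Dcbld2, a membrane receptor gene, had 0.89 and -0.21 per the same deposited table. Retreg1, a receptor for the autophagy of the endoplasmic reticulum, was the only pair of the reverse kind, with -0.22 in the intron and 0.53 at the promoter per the authors' deposited table. Promoter peaks were stronger than intron peaks as a class, and the fold fell with signal over all peaks. Among called peaks of each class, 63.7% of first intron peaks were gained and 69.8% of promoter peaks were lost. The parts of the trend with signal and of these class shares in the opposite pairs were not tested.

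**Figure D5:**
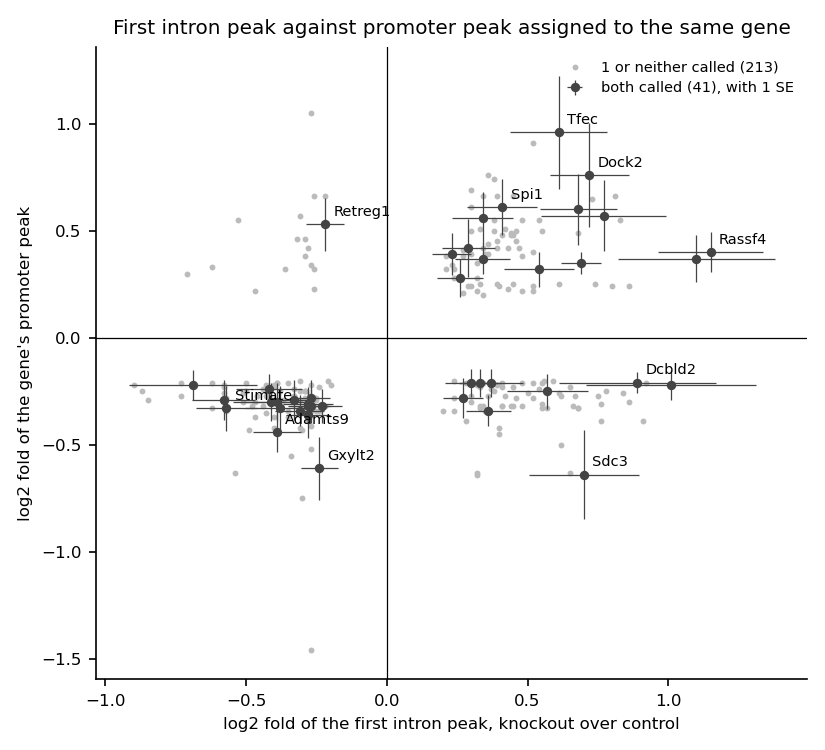
Each point is 1 pair, with the log2 fold of the first intron peak on the horizontal axis and that of the promoter peak assigned to the same gene on the vertical axis, and bars of 1 implied standard error where both were called. Dock2, Tfec and Spi1 lie in the upper right, Stimate, Adamts9 and Gxylt2 in the lower left, Sdc3 and Dcbld2 in the lower right, and Retreg1 in the upper left.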

How the data were processed

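ATAC-seq peaks of 2 knockout and 2 control libraries were used as the authors deposited them. Build mm39 and the tools HOMER, DiffBind 3.16.0, Bowtie2 2.5.4, Trim Galore 0.6.10, SAMtools 1.21, GATK 4.5.5.0 and deepTools 3.5.5 are listed per the submitters' processing notes, with no stated role. The sources used here give neither the peak caller nor the read shift for the transposase nor the normalization. Per the file headers, the authors computed for each peak a log2 fold, a mean log2 CPM, an F score, a p-value and an FDR with edgeR. The labels place replicates in groups, but the table holds no values per library.

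The standard error was derived by dividing the size of the log2 fold by the root of F. It followed signal almost alone (its slope against CPM, both in log2, was -0.52, with an r squared of 0.997), so a peak's own spread between libraries barely entered the deposited test. A peak was called at a deposited FDR under 0.05, adjusted over all 85925 peaks. Host genes were named with RefSeq (assembly GRCm38.p6), which matched 1876 of 1876 transcripts. Procedures were tested on simulated data. Alternatives were a stricter FDR, a minimum fold, Bonferroni adjustment, a filter on signal, subtraction of the running median fold over 2000 peaks along signal, and coefficients of variation of 0.05 and 0.1 added to the standard error. A coefficient of 0.2 was used only to count calls over all consensus peaks.

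Named genes were the 10 gained and 10 lost peaks of smallest FDR, the 5 gained and 5 lost of largest fold above the median signal of all consensus peaks, up to 3 called peaks of smallest FDR per list, and genes with 3 or more called peaks. Beyond this rule, all other called peaks of the lists were also named and are counted among the 106 named peaks. Genes of pairs, uncalled list peaks and the promoters shown were chosen after their values were seen, as were Gas7 and Rplp0. The regions and gene lists were chosen with earlier results of these data known. Analyses used Python 3.11.15 with pandas 2.3.3, scipy 1.17.1, matplotlib 3.10.9 and numpy 2.4.6.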

Additional observations from a re-analysis of the deposited data

How the results depend on the processing

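The counts of 378 gained and 215 lost first intron peaks were 140 and 68 at an FDR under 0.01, 231 and 64 with a minimum log2 fold of 0.5 in size, 27 and 11 with Bonferroni adjustment, 127 and 41 with an added coefficient of variation of 0.05, and 8 and 2 with 0.1. The gained share of called first intron peaks, 63.7%, was 78.3% with the minimum fold, 71.9% with the trend along signal subtracted, 75.6% and 80% with the added coefficients of 0.05 and 0.1, 58.1% above the median signal and 71.1% with Bonferroni adjustment. In the same order of settings, later introns (56.5%) had 68%, 60.7%, 62.8%, 73.3%, 49.6% and 61%, intergenic peaks (58.7%) 72%, 65.5%, 70.2%, 94.4%, 51.6% and 72.8%, and promoters (30.2%) 73.7%, 56.2%, 66.7%, 100%, 24.1% and 47.8%. At an FDR under 0.01 intergenic peaks had 64.7% and promoters 35.4%. Chosen after seeing the data, subtraction of the trend within bins gave 78.5%, 74.6% and 66.1% for the 3 distance bins up to 50 kb, and 53.1%, 64.4% and 74.2% for the weakest, the next and the strongest bin of signal. Of pairs of an intron and a promoter peak that were both called, 75.6% shared direction, and 74.4% where the intron belonged to the same gene, an alternative also chosen after seeing the data. No named peak changed direction, but only subtraction of the trend could change a sign, as the other settings leave the fold as deposited. Of 106 named peaks 59 stayed called at an FDR under 0.01 and 86 with the trend subtracted. With the added coefficients 47 and 10 stayed called, and 26 with Bonferroni adjustment. The causes were not tested, except that stricter limits and added error leave fewer calls by construction. No paired analysis was possible because the tables hold no values per library, and leaving out a library was not run for the same reason. Motif searches in the peaks were not run, because no genome of build mm39 was given. Depth per library is unknown, and weak peaks carry the largest errors.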

Other observations

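Lists put together after the values were seen are given as values alone. Of 15 first intron peaks in 4 genes of the MiT transcription factors and the folliculin complex, which control lysosomal genes, 7 (46.7%) were gained and 0 lost, with a median log2 fold of 0.45. Over all first intron peaks 20.1% were gained, and over all 23 annotated peaks of that list 10 were gained and 2 lost. They lay in Mitf, Tfec, Tfeb and Fnip2, a folliculin partner, and Tfeb had 0.53 (SE 0.157, FDR 0.0227) per the authors' deposited table. The ELMO, DOCK, RHOG and RAC module, which drives engulfment and cell movement, had 17 first intron peaks in 6 genes. Of these, 5 (29.4%) were gained and 2 (11.8%) lost, against 20.1% and 11.5% over all first intron peaks. Over the module's 40 annotated peaks 11 were gained and 4 lost. Rhog, the small GTPase upstream of ELMO, had 0.66 (SE 0.121, FDR 3.64e-05) in its only intron per the authors' deposited table. Dock4 had a lost peak at -0.29 (SE 0.081, FDR 0.0143) in the same deposited table. Around Sfi1, 4 further peaks within 50 kb were gained per the authors' deposited table, at 0.95 (SE 0.23), 0.77 (SE 0.0871), 0.71 (SE 0.18) and 0.35 (SE 0.0501), and 3 were not called, at 0.06, -0.08 and -0.17. The extreme folds were weak peaks: Tcap, in the first intron of Stard3, had 1.95 (SE 0.483) at 1.19 CPM, and Gm34304 had -2.11 (SE 0.653) at 0.928 CPM, per the authors' deposited table.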
